A study of Mus musculus with 11 samples.

Results

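A set of 10 genes of TGF-beta and BMP signalling were followed across mouse liver tumour cell lines that carry an activated form of TAZ or YAP. They were the ligand genes Tgfb1, Tgfb2, Tgfb3, Inhba, Bmp2 and Bmp4, the receptor gene Tgfbr2, the inhibitory SMAD genes Smad6 and Smad7, and the BMP antagonist gene Grem1. The 10 genes were taken by name from the 36528 gene IDs of the deposited count tables, through their Entrez IDs. All 10 were among the 18224 genes that passed the low-count filter and were tested.

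PolyA RNA was sequenced from lines derived from TAZ-S89A tumours (5 libraries), YAP-5SA tumours (3) and YAP-S127A tumours (3), each named for the mutant that the tumour carried. The sample labels spell the second mutant YAP-S5A. YAP and TAZ are coactivators of the TEAD transcription factors, and in these mutants alanine replaces serines at which Hippo pathway kinases restrain the protein. The lines share a liver origin, and no group without a mutant was analysed here. Nothing in the labels tells separate tumours, lines or cultures from repeats of 1 culture, so a p-value here speaks of the scatter among these 11 libraries and no more, and that scatter may be technical. The mutant and the identity of the line cannot be told apart.

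TGF-beta and activin ligands bind a type II receptor, which recruits and phosphorylates a type I receptor, and the type I receptor then phosphorylates SMAD2 and SMAD3. BMPs use related receptors to phosphorylate SMAD1, SMAD5 and SMAD9, and both branches share SMAD4. SMAD7 and SMAD6 are feedback inhibitors, SMAD7 of both branches and SMAD6 mainly of the BMP branch, and secreted antagonists such as Gremlin hold BMPs away from their receptors. In the liver TGF-beta is known for activating stellate cells and for restraining hepatocyte growth.

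The 3 groups differed in the levels of most of the ligand RNAs. TAZ-S89A lines had little Bmp2, Bmp4 and Grem1 RNA and high Inhba. YAP-5SA lines had high Bmp4, Tgfbr2, Smad6 and Smad7 and low Inhba and Tgfb3. YAP-S127A lines had both Inhba and Bmp4 high, with the most Tgfb2, Tgfb3 and Grem1 and the least Tgfbr2. Among the 10 genes, Tgfb1 was highest in TAZ-S89A, 5 were highest in YAP-5SA (Tgfbr2, Bmp2, Bmp4, Smad6 and Smad7) and 4 in YAP-S127A (Tgfb2, Tgfb3, Inhba and Grem1). For 9 of the 10, no library of any group overlapped with those of another group, and Tgfb1 was the exception. Of all tested genes, 25.6% had no such overlap among the 3 groups. Bulk libraries cannot separate fewer cells that make an RNA from less of it in each cell.

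**Figure D1:**
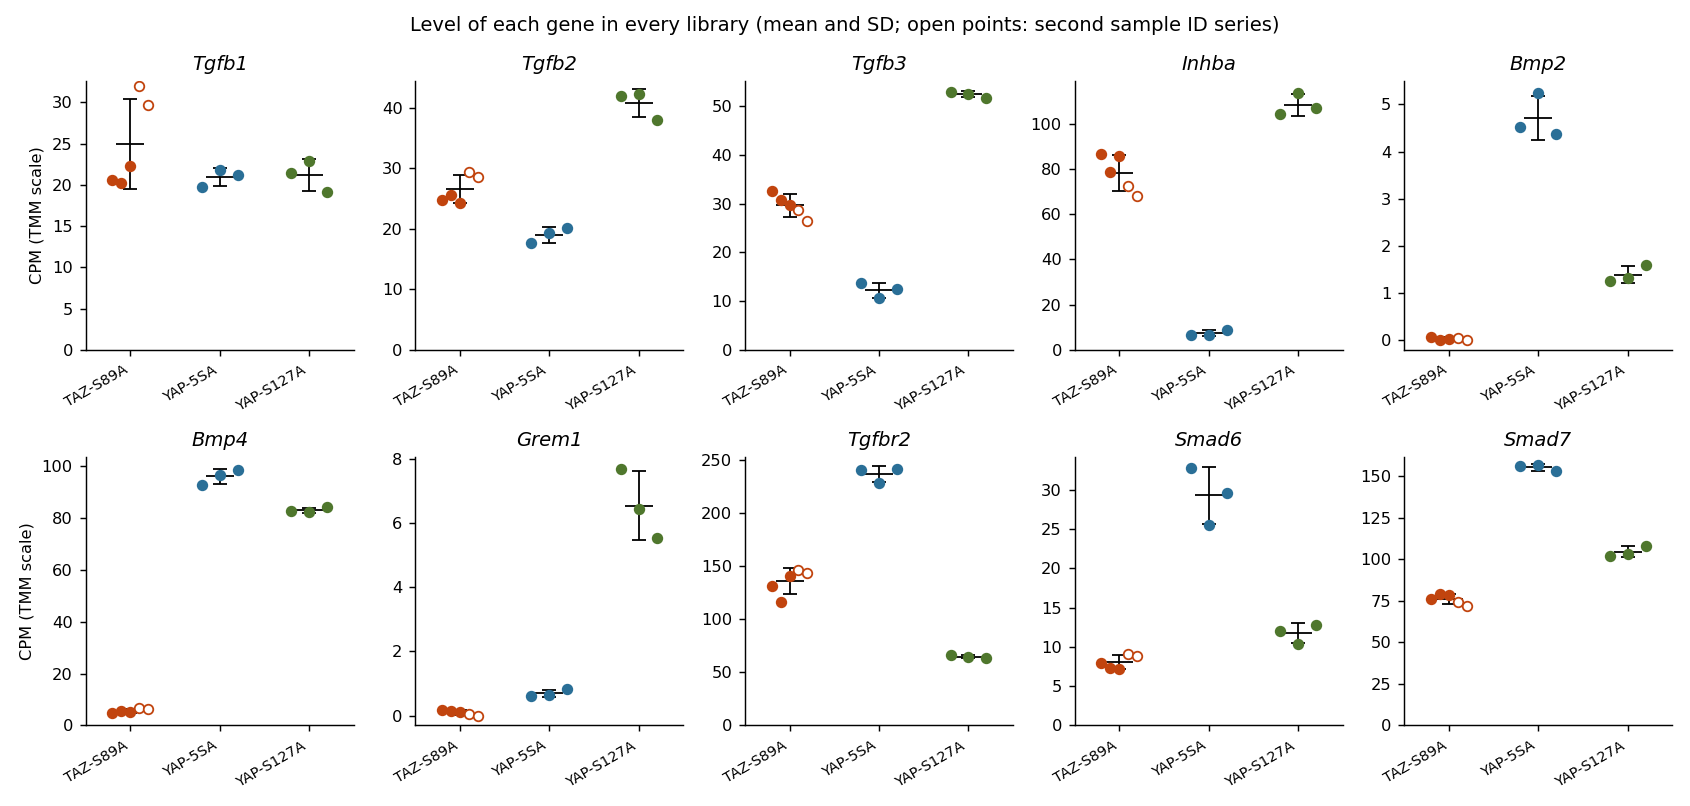
Level of each of the 10 genes in every library, in CPM on a linear axis of its own per gene, with TAZ-S89A, YAP-5SA and YAP-S127A from left to right. Points are libraries (open for the second ID series, TAZ-S89A replicates 4 and 5), and lines give group mean and SD. Bmp2 and Grem1 sit near 0 in TAZ-S89A, Inhba is lowest in YAP-5SA, and the 3 groups overlap for Tgfb1.

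Levels are given below as CPM (counts scaled by library total and TMM factor), which compare libraries for 1 gene. Levels of different genes are compared in the deposited nRPKM, which is also scaled to gene length. Differences are log2 fold changes, the first-named group minus the second, from edgeR's quasi-likelihood test, with a standard error (SE) and a Benjamini-Hochberg p adjusted over all tested genes. A gene was called at an adjusted p under 0.05. Values after ± are SDs over the libraries of a group. Total counts ran from 20071144 to 49159713 a library. TAZ-S89A replicates 4 and 5 bear sample IDs from a later number range, here the second ID series, and had the smallest totals. Within each group the libraries were unevenly alike. In TAZ-S89A, chi-square per degree of freedom over genes was 2.01 between replicates 4 and 5 and 5.63 between replicates 1 and 2. Both were above sampling noise, and the other TAZ-S89A pairs had 101 to 218. In YAP-S127A it was 6.34 between replicates 1 and 2, and 15.6 and 33.1 for the other pairs. In YAP-5SA it was 15.6 between replicates 1 and 3, and 83.0 and 131.5 for the other pairs. Leaving out the second ID series changed no call among the 10 genes, and moved their fold changes by no more than 0.43 on the log2 scale.

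Although the labels give the tissue as liver, most hepatocyte markers were near 0. Summed over 10 hepatocyte markers, levels were 2.84 to 4.13 CPM in TAZ-S89A, 710 to 783 CPM in YAP-5SA and 89.5 to 96.1 CPM in YAP-S127A, and 6 of the 10 (Apoa1, Ttr, Cyp2e1, Cps1, Tat and Fgb) were under 1 CPM in every library. Apob alone averaged 2.09, 726 and 76.8 CPM in these groups. Alb, which encodes albumin, reached at most 1.31 CPM. The 7 biliary and progenitor markers summed to 1765 to 3670 CPM, 2723 to 4278 CPM and 467 to 591 CPM in TAZ-S89A, YAP-5SA and YAP-S127A, with 6 of 7 at 1 CPM or more in each group and Epcam under 1 CPM. The 8 endothelial markers summed to 0.377 to 1.18 CPM in TAZ-S89A, 1.03 to 1.43 CPM in YAP-5SA and 8.76 to 11.2 CPM in YAP-S127A, and Pecam1, Cdh5, Tek, Tie1, Stab2 and Clec4g were under 1 CPM throughout. The 8 macrophage markers summed to 27.6 to 37.1 CPM, 84.7 to 96.7 CPM and 23.6 to 28.3 CPM in the same order, with 3, 4 and 4 markers at 1 CPM or more and Ptprc, Adgre1, Clec4f and Cd163 under 1 CPM throughout.

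The TGF-beta ligands share 1 receptor pair and are made as latent proteins that must be released to act. Tgfb1 (Entrez 21803, chr7:25687002-25705077, GRCm38) was the one gene of the 10 with no called difference. Its CPM was 20.6, 20.2, 22.2, 31.9 and 29.7 in TAZ-S89A, 19.7, 21.9 and 21.1 in YAP-5SA, and 21.4, 22.9 and 19.1 in YAP-S127A. Only TAZ-S89A replicates 4 and 5 stood above the rest, at a mean 1.47 times that of replicates 1 to 3. The log2 fold change of TAZ-S89A against YAP-5SA was 0.25 (95% interval -0.10 to 0.60, adjusted p = 0.206), or 0.02 over replicates 1 to 3 alone. Against YAP-S127A it was 0.24 (-0.12 to 0.59, adjusted p = 0.234), and -0.02 over replicates 1 to 3. YAP-5SA against YAP-S127A gave -0.02 (-0.41 to 0.37, adjusted p = 0.951). The median of 1248 tested genes on chromosome 7 was -0.54 in TAZ-S89A against YAP-5SA and -0.70 against YAP-S127A, so Tgfb1 stood above most genes of its chromosome in both.

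Tgfb2 (Entrez 21808, chr1:186622787-186709697) followed a steady order, lowest in YAP-5SA and highest in YAP-S127A. It had 24.3 to 29.4 CPM in TAZ-S89A (mean 26.5 ± 2.28, SD, n = 5), 17.6 to 20.2 CPM in YAP-5SA (19.0 ± 1.32, n = 3) and 38.0 to 42.3 CPM in YAP-S127A (40.7 ± 2.37, n = 3). Its highest group mean was 2.14 times its lowest, less than for most members but more than for Smad7 (2.04) and Tgfb1 (1.19). TAZ-S89A was higher than YAP-5SA by 0.48 (SE 0.11, adjusted p = 0.00245) and lower than YAP-S127A, at -0.62 (SE 0.11, adjusted p = 0.000277), and YAP-5SA was lower than YAP-S127A at -1.10 (SE 0.13, adjusted p = 5.5e-06).

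Tgfb3 (Entrez 21809, chr12:86056743-86079041) had the same order with wider gaps. It stood at 32.6, 30.7, 29.8, 28.8 and 26.5 CPM in TAZ-S89A, 13.6, 10.7 and 12.4 CPM in YAP-5SA, and 53.0, 52.6 and 51.8 CPM in YAP-S127A. Each group's libraries lay in a narrow band with open space between the bands. TAZ-S89A was higher than YAP-5SA by 1.28 (SE 0.12, adjusted p = 6.02e-07) and lower than YAP-S127A at -0.82 (SE 0.11, adjusted p = 2.61e-05). YAP-5SA against YAP-S127A gave -2.10 (SE 0.13, adjusted p = 1.5e-08).

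Tgfb1 had no called difference and Tgfb2 and Tgfb3 did, and the makeup of the TGF-beta ligand RNA differed. In nRPKM, Tgfb1 was 47.7 ± 5.82% of the summed Tgfb1, Tgfb2 and Tgfb3 level in TAZ-S89A, 60.4 ± 2.43% in YAP-5SA and 31.6 ± 1.54% in YAP-S127A. Tgfb3 was 35.8 ± 5.60%, 21.9 ± 2.95% and 48.7 ± 1.75% of the sum in TAZ-S89A, YAP-5SA and YAP-S127A. Tgfb2 kept a share between 16.5 ± 0.551% in TAZ-S89A and 19.6 ± 0.318% in YAP-S127A, with 17.6 ± 0.851% in YAP-5SA. In TAZ-S89A the Tgfb1 share was 43.6% over replicates 1 to 3 alone, against 54.0% and 53.8% in replicates 4 and 5. The summed level of the 3 genes was 20.4 ± 2.83 nRPKM in TAZ-S89A, 13.5 ± 0.276 nRPKM in YAP-5SA and 26.1 ± 1.43 nRPKM in YAP-S127A.

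**Figure D2:**
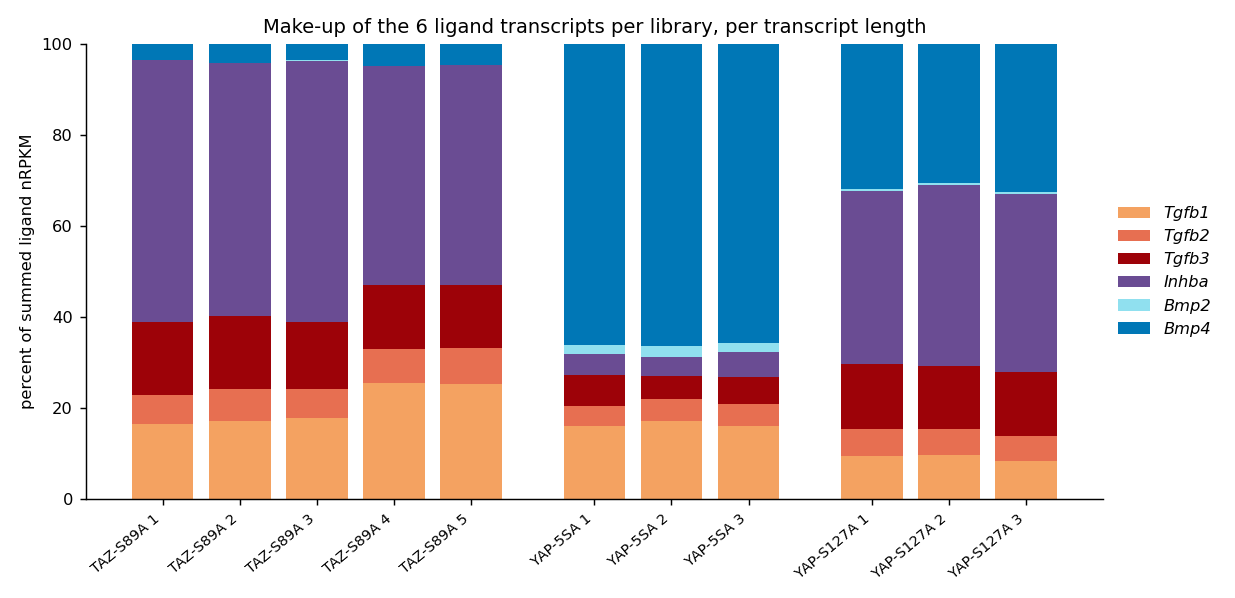
Makeup of the ligand RNA in each library, as a percentage of the summed nRPKM, for TAZ-S89A, YAP-5SA and YAP-S127A from left to right. Bmp2 and Bmp4 make up 3.53 to 4.77% of the 6 ligands in TAZ-S89A, 67.7 to 68.8% in YAP-5SA and 31.0 to 33.0% in YAP-S127A.

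Inhba (Entrez 16323, chr13:16004256-16031609) encodes the activin beta A subunit, whose dimer is activin A. It had 86.4, 78.8, 85.7, 72.6 and 68.1 CPM in TAZ-S89A, 6.63, 6.48 and 8.96 CPM in YAP-5SA, and 104, 113 and 107 CPM in YAP-S127A. The YAP-5SA libraries all lay far below every other library. TAZ-S89A was 10.6-fold higher than YAP-5SA (log2 fold change 3.41, SE 0.16, adjusted p = 4.5e-10) and lower than YAP-S127A at -0.47 (SE 0.13, adjusted p = 0.00907). YAP-5SA against YAP-S127A gave -3.88 (SE 0.17, adjusted p = 5.64e-10). Per length, Inhba was the highest of the 10 genes in TAZ-S89A (25.5 nRPKM, overlapping with Tgfbr2 at 23.4) and in YAP-S127A (35.3 nRPKM), while in YAP-5SA it stood at 2.39 nRPKM, level with Tgfb2 at 2.38.

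The partners and antagonists of activin varied with it in different ways. Inhbb, the beta B subunit of activin, averaged 6.57 ± 0.572 CPM in TAZ-S89A, 0.0822 ± 0.0547 CPM in YAP-5SA and 0.262 ± 0.0163 CPM in YAP-S127A. Inha, whose product pairs with beta subunits into inhibins that oppose activin, averaged 5.18 ± 1.62, 2.01 ± 0.275 and 30.4 ± 1.45 CPM in TAZ-S89A, YAP-5SA and YAP-S127A. Inhbb was higher in TAZ-S89A than in either YAP group, and Inha was highest in YAP-S127A, with all these differences called. Fst encodes follistatin, a secreted protein that binds activin. It averaged 17.2 ± 2.35 CPM in TAZ-S89A, 40.4 ± 5.27 CPM in YAP-5SA and 133 ± 17.1 CPM in YAP-S127A. In nRPKM the ratio of Inhba to Fst was 5.28 ± 0.352 in TAZ-S89A, 0.214 ± 0.0582 in YAP-5SA and 0.95 ± 0.119 in YAP-S127A, with no overlap between groups. YAP-S127A thus had the most Inhba RNA but not the highest Inhba per Fst.

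**Figure D3:**
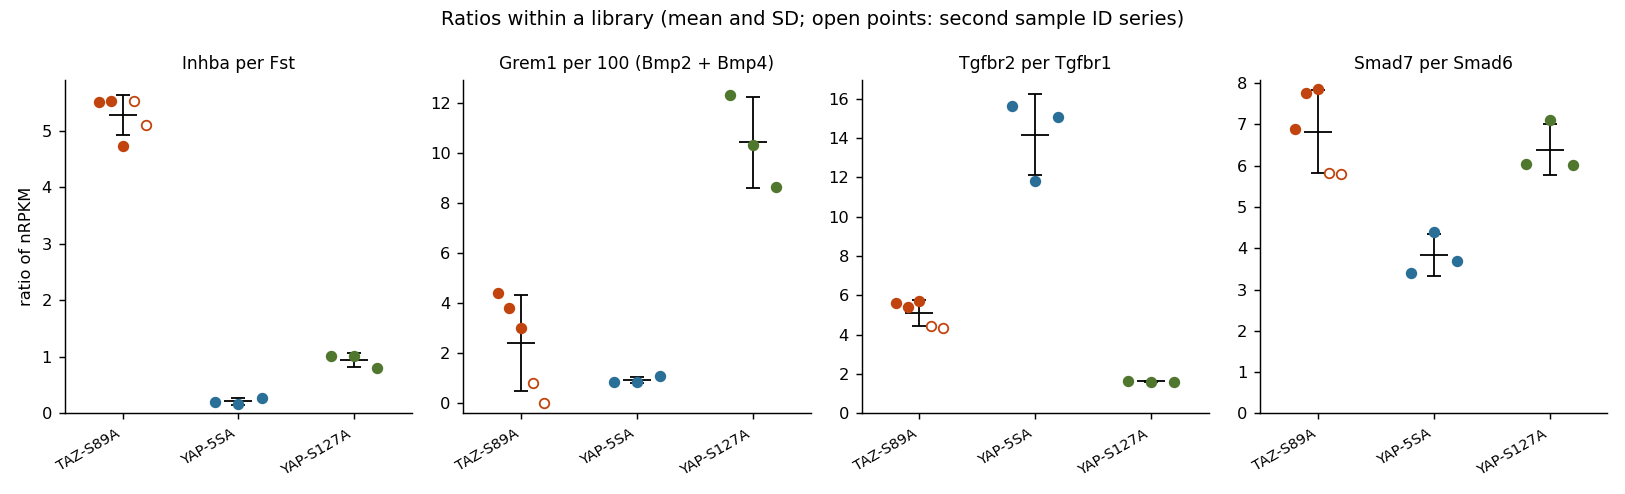
Ratios of nRPKM within each library, with TAZ-S89A, YAP-5SA and YAP-S127A from left to right, points for libraries (open for TAZ-S89A replicates 4 and 5) and lines for group mean and SD. The mean Inhba per Fst is 5.28 for TAZ-S89A, 0.214 for YAP-5SA and 0.95 for YAP-S127A. Tgfbr2 per Tgfbr1 averages 5.11, 14.2 and 1.63 in these groups.

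The summed RNA level of stellate cell and fibroblast markers had the same order over the groups as Tgfb2, Tgfb3 and Inhba, but its members did not all follow that order. The 10 markers summed to 1801 to 3405 CPM in TAZ-S89A, 285 to 383 CPM in YAP-5SA and 5981 to 6573 CPM in YAP-S127A, with 5, 5 and 6 of them at 1 CPM or more. Col1a2 carried most of the sum in TAZ-S89A, at 2219 ± 767 CPM, against 16.2 ± 1.56 CPM in YAP-5SA and 2274 ± 117 CPM in YAP-S127A. Col1a1 was lowest in TAZ-S89A, at 31.0 CPM, with 322 CPM in YAP-5SA and 2950.1 CPM in YAP-S127A. Mean Dcn was close to equal in TAZ-S89A (0.582 CPM) and YAP-5SA (0.590 CPM) only with all libraries. Without the second ID series, Dcn was lower in TAZ-S89A than in YAP-5SA (log2 fold change -1.17, adjusted p = 0.0087). Des, Lrat and Lum were under 1 CPM in every library, and Lrat and Lum had 0 counts in TAZ-S89A and YAP-S127A. The part of such cells or of that expression state in the ligand differences was not tested.

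BMP2 and BMP4 are closely related ligands of the BMP branch. Bmp4 (Entrez 12159, chr14:46383525-46390669) had 4.96, 5.46, 5.10, 6.77 and 6.26 CPM in TAZ-S89A, 92.9, 96.7 and 98.6 CPM in YAP-5SA, and 82.6, 82.4 and 84.2 CPM in YAP-S127A. Every TAZ-S89A library lay more than an order of magnitude below every YAP library. TAZ-S89A was 16.9-fold lower than YAP-5SA (log2 fold change -4.08, SE 0.13, adjusted p = 7.28e-12) and 14.6-fold lower than YAP-S127A (-3.87, SE 0.12, adjusted p = 1.04e-11). The median of 562 tested genes on chromosome 14 was -0.76 and -0.53 in these comparisons, and its part in them was not tested. YAP-5SA against YAP-S127A gave 0.21 (95% interval -0.08 to 0.50, adjusted p = 0.195), which did not pass, although the libraries of the YAP groups did not overlap.

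Bmp2 (Entrez 12156, chr2:133552159-133562896) was close to absent in TAZ-S89A. Its raw counts there were 3, 0, 1, 1 and 0, and where the count was 0 a level of up to 0.0669 CPM (replicate 2) or 0.125 CPM (replicate 5) remains possible, counting error only. It had 4.52, 5.24 and 4.38 CPM in YAP-5SA and 1.25, 1.31 and 1.58 CPM in YAP-S127A. The TAZ-S89A libraries lay below all others, and the YAP groups were apart from each other. The ratio of pooled levels of YAP-5SA over TAZ-S89A was 161 (counting interval 68.4 to 497), and of YAP-S127A over TAZ-S89A 46.8 (19.6 to 146), while the fitted log2 fold changes, which depend on a prior count, were -7.17 (adjusted p = 1.03e-09) and -5.40 (adjusted p = 8.19e-08). YAP-5SA was higher than YAP-S127A by 1.77 (SE 0.27, adjusted p = 7.61e-05). Bmp2 was the smaller part of Bmp2 and Bmp4 together, at 0.344 ± 0.387% (TAZ-S89A), 3.16 ± 0.304% (YAP-5SA) and 1.09 ± 0.126% (YAP-S127A) of their summed nRPKM.

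Among the 6 member ligands, the BMP share was lowest in TAZ-S89A. Bmp2 and Bmp4 came to 4.14 ± 0.581% of the summed nRPKM of the 6 ligands in TAZ-S89A, 68.3 ± 0.570% in YAP-5SA and 32.1 ± 1.04% in YAP-S127A. Inhba came to 55.7 ± 4.68% of Inhba plus the TGF-beta ligands in TAZ-S89A, 15.0 ± 2.15% in YAP-5SA and 57.5 ± 1.10% in YAP-S127A. Over TAZ-S89A replicates 1 to 3 the Inhba share was 59.1%, above the YAP-S127A mean, against 50.6% and 50.7% in replicates 4 and 5. Bmp7, a BMP ligand that is not among the 10 genes and was named after its values were seen, went the other way. It averaged 7.98 ± 1.41 nRPKM in TAZ-S89A, above Bmp4 there, 6.10 ± 0.0982 nRPKM in YAP-5SA and 1.98 ± 0.306 nRPKM in YAP-S127A. TAZ-S89A was higher than YAP-S127A by 2.0 (SE 0.15, adjusted p = 8.67e-08). Against YAP-5SA the 0.37 (adjusted p = 0.0371) was lost with any of 5 single libraries left out, TAZ-S89A replicates 4 and 5 and each of YAP-5SA (adjusted p 0.0683 to 0.105). RNA shares of this kind say nothing of the amounts of secreted or released protein.

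Grem1 (Entrez 23892, chr2:113748675-113758648) encodes Gremlin 1, which binds BMP2 and BMP4. TAZ-S89A held raw counts of 7, 7, 4, 1 and 0, that is 0.165, 0.156, 0.116 and 0.0408 CPM and, in replicate 5, at most 0.125 CPM. YAP-5SA had 0.615, 0.646 and 0.823 CPM, and YAP-S127A had 7.69, 6.43 and 5.53 CPM. All groups stood apart, YAP-S127A most. TAZ-S89A was lower than YAP-5SA at -2.63 (SE 0.40, adjusted p = 6.34e-05), or -2.20 over replicates 1 to 3. Against YAP-S127A it was -5.86 (SE 0.34, adjusted p = 3.87e-09), and -5.46 over replicates 1 to 3. The ratio of pooled levels of YAP-S127A over TAZ-S89A was 59.5 (counting interval 37.9 to 99.5). YAP-5SA against YAP-S127A gave -3.23 (SE 0.32, adjusted p = 1.23e-06).

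Set against the ligands that it binds, Grem1 was low in all groups. Per 100 nRPKM of Bmp2 plus Bmp4 there were 2.41 ± 1.92 of Grem1 in TAZ-S89A, 0.932 ± 0.130 in YAP-5SA and 10.4 ± 1.83 in YAP-S127A. The TAZ-S89A ratio rests on few counts, ran from 0 to 4.41 and was 3.75 over replicates 1 to 3. The YAP-S127A libraries therefore combined high Bmp4 with the highest ratio of Grem1 to these 2 ligands. Other BMP antagonists did not all share this order. Nog (noggin), named after its values were seen, was lowest in YAP-S127A. It averaged 2.46 ± 0.789 nRPKM in TAZ-S89A, 2.27 ± 0.366 nRPKM in YAP-5SA and 0.610 ± 0.0366 nRPKM in YAP-S127A.

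Tgfbr2 (Entrez 21813, chr9:116087695-116175363) encodes the type II receptor that binds TGF-beta. Its order over the groups was the reverse of that of Tgfb2 and Tgfb3. It had 131, 117, 141, 147 and 144 CPM in TAZ-S89A, 241, 229 and 242 CPM in YAP-5SA, and 66.3, 64.7 and 63.4 CPM in YAP-S127A. The bands did not touch. TAZ-S89A was lower than YAP-5SA at -0.80 (SE 0.13, adjusted p = 0.000104) and higher than YAP-S127A at 1.07 (SE 0.14, adjusted p = 1.42e-05), and YAP-5SA was higher than YAP-S127A by 1.87 (SE 0.15, adjusted p = 1.7e-07). The median of 908 tested genes on chromosome 9 was -0.56 in TAZ-S89A against YAP-5SA and -0.67 against YAP-S127A, so the Tgfbr2 difference from YAP-5SA lay 0.24 below its chromosome's median.

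Tgfbr1, the type I partner and a gene picked for this ratio after its values were seen, did the opposite. It averaged 39.8 ± 8.06 CPM in TAZ-S89A, 24.9 ± 3.14 CPM in YAP-5SA and 58.5 ± 0.835 CPM in YAP-S127A, with log2 fold changes of 0.68 (adjusted p = 0.00239), -0.56 (adjusted p = 0.00689) and -1.23 (adjusted p = 4.52e-05) in TAZ-S89A against YAP-5SA, TAZ-S89A against YAP-S127A and YAP-5SA against YAP-S127A. Tgfbr2 per Tgfbr1 in nRPKM was 5.11 ± 0.660 in TAZ-S89A, 14.2 ± 2.06 in YAP-5SA and 1.63 ± 0.0370 in YAP-S127A. Both receptor RNAs were thus present in every group, in unequal proportion.

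Smad6 (Entrez 17130, chr9:63953076-64022085) was highest in YAP-5SA. It had 7.91, 7.29, 7.14, 9.10 and 8.89 CPM in TAZ-S89A, 32.7, 25.5 and 29.6 CPM in YAP-5SA, and 12.1, 10.4 and 12.8 CPM in YAP-S127A. TAZ-S89A lay just under YAP-S127A, and YAP-5SA well above both. TAZ-S89A against YAP-5SA gave -1.86 (SE 0.13, adjusted p = 3.29e-08), and YAP-5SA against YAP-S127A 1.31 (SE 0.15, adjusted p = 6.49e-06). TAZ-S89A against YAP-S127A gave -0.55 (SE 0.14, adjusted p = 0.00341), which lay 0.12 above the median of its chromosome, so that 57.3% of the tested genes of chromosome 9 had a lower value. The part of the chromosome in that difference was not tested.

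Smad7 (Entrez 17131, chr18:75367365-75395935) had the same order, with 76.1, 79.2, 78.4, 74.0 and 72.1 CPM in TAZ-S89A, 156, 157 and 153 CPM in YAP-5SA, and 102, 103 and 108 CPM in YAP-S127A. Its libraries were the most even of the members within TAZ-S89A and YAP-5SA. TAZ-S89A was lower than YAP-5SA at -1.03 (SE 0.11, adjusted p = 2.16e-06) and lower than YAP-S127A at -0.46 (SE 0.11, adjusted p = 0.00297), and YAP-5SA was higher than YAP-S127A by 0.57 (SE 0.13, adjusted p = 0.00156). Per length there was more Smad7 than Smad6 everywhere, with a ratio of 6.82 ± 1.01 in TAZ-S89A, 3.83 ± 0.507 in YAP-5SA and 6.39 ± 0.616 in YAP-S127A. Over TAZ-S89A replicates 1 to 3 it was 7.50.

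**Figure D4:**
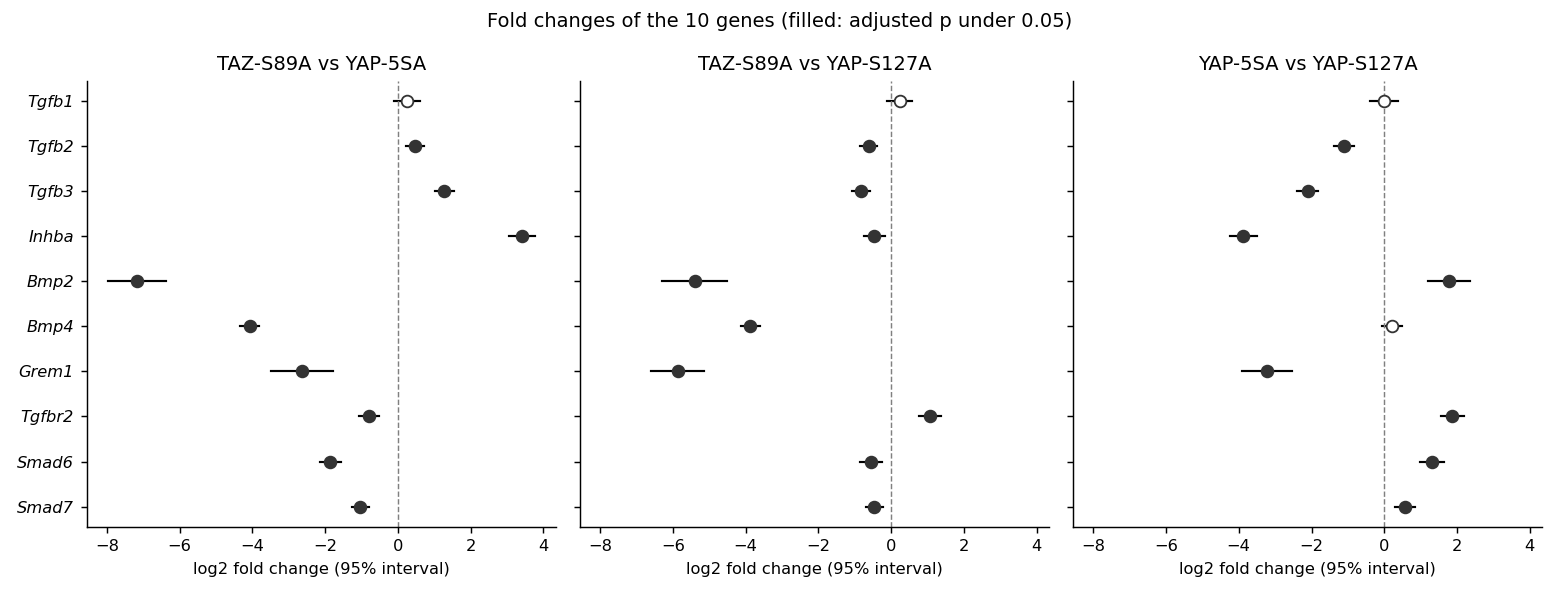
Log2 fold change of each of the 10 genes in the 3 comparisons, the first-named group minus the second, with 95% intervals and points filled where the adjusted p is under 0.05. The values run from -7.17 for Bmp2 in TAZ-S89A against YAP-5SA to 3.41 for Inhba in the same comparison, and the intervals of Tgfb1 include 0 in all 3.

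Counted together, 9 of the 10 genes were called in TAZ-S89A against YAP-5SA, 3 higher and 6 lower, where 57.9% of all tested genes were called, 26.9% higher and 31.0% lower. In TAZ-S89A against YAP-S127A 9 were called, 1 higher and 8 lower, where 57.6% of all tested genes were called, 27.0% higher and 30.6% lower. In YAP-5SA against YAP-S127A 8 were called, 4 higher and 4 lower, where 55.2% of all tested genes were called, 28.2% higher and 27.0% lower. The median log2 fold change of the 10 was -0.92 in TAZ-S89A against YAP-5SA, -0.58 in TAZ-S89A against YAP-S127A and 0.10 in YAP-5SA against YAP-S127A, beside -0.04, -0.03 and 0.01 over all tested genes. The groups did not overlap for 9 of the 10 genes in each comparison, and for 52.0%, 57.8% and 69.6% of all tested genes in the same order. When calls also had to show a log2 fold change of 1 or more in size, 7, 4 and 7 of the 10 were called, beside 33.8%, 32.2% and 34.4% of all tested genes. The 3 comparisons share their groups and are not separate evidence.

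The promoters of the members, from 250 bases before to 50 bases after a RefSeq start site on GRCm38.p6, were searched on both strands for 5 short motifs, and 7 of the 10 genes matched the table. The palindrome GTCTAGAC, bound by SMAD3 and SMAD4, was found in 0.213% of 32851 mouse promoters (70 of them) and, among the 7, in that of Smad6. The shorter SMAD motif CAGAC was found in 49.6% of all promoters and in 3 of the 7 (Tgfb2, Tgfbr2 and Grem1), and GGCGCC, bound by BMP SMADs, in 11.9% and in 1 (Grem1). The TEAD motif CATTCC was in 14.7% and the AP-1 motif TGANTCA in 7.81% of all promoters, and neither was in these windows of the 7 members. The sequences of Smad6, the feedback gene with the rare palindrome, and of Grem1, the member with the most matches, follow with the matches in capitals. Smad6 is at chr9:64022010-64022309 and Grem1 at chr2:113758599-113758898, both read 5′ to 3′ on the minus strand.
Smad6: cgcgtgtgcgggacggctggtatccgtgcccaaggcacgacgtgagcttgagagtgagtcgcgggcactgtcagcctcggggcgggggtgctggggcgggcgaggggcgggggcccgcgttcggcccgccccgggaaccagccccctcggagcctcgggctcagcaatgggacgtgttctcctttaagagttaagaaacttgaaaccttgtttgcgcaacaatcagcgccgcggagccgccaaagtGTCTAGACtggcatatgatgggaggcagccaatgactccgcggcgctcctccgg
Grem1: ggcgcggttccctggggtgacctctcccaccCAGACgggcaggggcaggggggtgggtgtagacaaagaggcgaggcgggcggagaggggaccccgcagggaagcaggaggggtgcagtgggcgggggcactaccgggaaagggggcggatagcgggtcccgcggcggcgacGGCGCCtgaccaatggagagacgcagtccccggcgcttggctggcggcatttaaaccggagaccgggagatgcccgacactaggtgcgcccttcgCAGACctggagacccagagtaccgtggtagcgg
In Smad6 the palindrome starts at position -4, counting the start site as 0. In Grem1 the CAGAC matches start at positions -219 and 17 and GGCGCC at -78. A match in these letters is a description and not a binding site shown here.

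Among other genes of the pathway, 115 were listed in 8 groups by role, and 96 of them were tested. In TAZ-S89A against YAP-5SA 33 were higher and 30 lower (median log2 fold change 0.03), in TAZ-S89A against YAP-S127A 26 were higher and 44 lower (-0.25), and in YAP-5SA against YAP-S127A 25 were higher and 39 lower (-0.33). The called genes made up 65.6%, 72.9% and 66.7% of those tested in the 3 comparisons, beside 57.9%, 57.6% and 55.2% of all tested genes.

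Of the other ligands 16 of 26 were tested. Set against YAP-5SA, 9 were higher and 5 lower in TAZ-S89A (median log2 fold change 0.76). Set against YAP-S127A, 4 were higher and 7 lower in TAZ-S89A (-0.50), and 5 higher and 6 lower in YAP-5SA (-0.43). Inhbb was higher in TAZ-S89A by 6.25 (SE 0.29) against YAP-5SA and by 4.63 (SE 0.25) against YAP-S127A. Lefty1, which encodes an antagonist of Nodal signalling, averaged 0.394 ± 0.162 CPM in TAZ-S89A, 19.1 ± 1.72 CPM in YAP-5SA and 2.07 ± 0.0550 CPM in YAP-S127A. Gdf15, a stress-induced member of the family, averaged 3.58 ± 1.10, 41.5 ± 5.12 and 20.5 ± 2.26 CPM in the same order. Bmp6, which in the liver controls iron through hepcidin, averaged 1.30 ± 0.164 CPM in TAZ-S89A, 0.400 ± 0.0481 CPM in YAP-5SA and 4.35 ± 0.437 CPM in YAP-S127A, and overlaps Txndc5.

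Of the other receptors and coreceptors 14 of 15 were tested. TAZ-S89A had 3 higher and 5 lower than YAP-5SA (median log2 fold change -0.07), and 3 higher and 7 lower than YAP-S127A (-0.40). YAP-5SA had 2 higher and 6 lower than YAP-S127A (-0.49). Acvrl1 (ALK1), a type I receptor best known in endothelial cells, averaged 0.121 ± 0.0699 CPM in TAZ-S89A, 6.55 ± 0.916 CPM in YAP-5SA and 17.1 ± 0.649 CPM in YAP-S127A. Eng, which encodes its coreceptor endoglin and overlaps Fpgs, averaged 5.96 ± 1.35 CPM, 10.05 ± 0.711 CPM and 167 ± 9.92 CPM in the same order. Both were highest in YAP-S127A, as was the summed level of the 8 endothelial markers. Of these, Emcn (7.61 ± 1.5 CPM) and Kdr (1.25 ± 0.206 CPM) averaged 1 CPM or more in YAP-S127A, while Pecam1, Cdh5, Tek, Tie1, Stab2 and Clec4g were under 1 CPM in every library. The part of endothelial cells in these levels was not tested. Rgma and Rgmb encode BMP coreceptors. Rgma was lower in TAZ-S89A than in YAP-S127A at -2.85 (SE 0.20), and Rgmb was higher in TAZ-S89A than in YAP-5SA by 0.96 (SE 0.14).

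All 6 signalling SMADs were tested. Calls in TAZ-S89A against YAP-5SA were 0 higher and 2 lower (median log2 fold change 0.00). They were 1 higher and 2 lower in TAZ-S89A against YAP-S127A (-0.03), and 3 higher and 1 lower in YAP-5SA against YAP-S127A (0.39). Smad9, of the BMP branch, averaged 0.768 ± 0.322 CPM in TAZ-S89A, 20.5 ± 2.15 CPM in YAP-5SA and 5.43 ± 0.451 CPM in YAP-S127A. Smad3, of the TGF-beta and activin branch, averaged 48.9 ± 6.72, 158 ± 17.5 and 82.1 ± 6.39 CPM in the same order, so both were highest in YAP-5SA as Smad6 and Smad7 were. Smad2 averaged 98.2 ± 8.92, 96.3 ± 17.6 and 69.5 ± 5.86 CPM, with calls of TAZ-S89A (0.50, adjusted p = 0.00902) and YAP-5SA (0.47, adjusted p = 0.0216) against YAP-S127A. The call of TAZ-S89A was lost without YAP-S127A replicate 1 (adjusted p = 0.0576). That of YAP-5SA was lost without YAP-5SA replicate 2 (adjusted p = 0.0952) or YAP-S127A replicate 1 (0.0981) or 2 (0.0596).

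Of the genes for latency and activation 13 of 14 were tested. Set against YAP-5SA, 5 were higher and 3 lower in TAZ-S89A (median log2 fold change 0.18). Set against YAP-S127A, 5 were higher and 6 lower in TAZ-S89A (-0.29), and 1 higher and 9 lower in YAP-5SA (-1.18). Lrrc32 (GARP), which anchors latent TGF-beta at the cell surface, averaged 27.9 ± 4.26 CPM in TAZ-S89A, 3.96 ± 0.681 CPM in YAP-5SA and 179 ± 10.3 CPM in YAP-S127A. Itgb8, a subunit of an integrin that activates latent TGF-beta, averaged 12.9 ± 1.77, 0.263 ± 0.0824 and 2.75 ± 0.144 CPM, and Thbs1 (thrombospondin), another activator, 478 ± 40.8, 54.2 ± 9.52 and 324 ± 17.2 CPM. Each of the 3 was lowest in YAP-5SA, where Tgfb2 and Tgfb3 were lowest too. Other genes of this list did not all share that order. Itgb6, also an integrin subunit gene and named after its values were seen, was highest in YAP-5SA. It averaged 20.9 ± 6.53 CPM in TAZ-S89A, 92.97 ± 5.75 CPM in YAP-5SA and 6.76 ± 0.523 CPM in YAP-S127A. TAZ-S89A against YAP-5SA gave -2.15 (SE 0.21) and YAP-5SA against YAP-S127A 3.78 (SE 0.27), both called. The Thbs1 call in TAZ-S89A against YAP-S127A (0.56, adjusted p = 0.0137) was lost without YAP-S127A replicate 1 (adjusted p = 0.0507) or 3 (adjusted p = 0.0627). The matrix genes Fbn1 and Ltbp2 and the protease gene Tll1 were lower in TAZ-S89A than in YAP-S127A, at -3.77 (SE 0.18), -3.91 (SE 0.18) and -7.06 (SE 0.39), and Ltbp2 overlaps D030025P21Rik.

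Of the secreted antagonists other than Grem1, 11 of 16 were tested. TAZ-S89A had 5 higher and 4 lower than YAP-5SA (median log2 fold change 0.09), and 4 higher and 7 lower than YAP-S127A (-1.48). YAP-5SA had 2 higher and 6 lower than YAP-S127A (-0.45). Fstl3, a relative of follistatin that binds activin, averaged 0.406 ± 0.0981 CPM in TAZ-S89A, 33.3 ± 1.06 CPM in YAP-5SA and 39.1 ± 2.31 CPM in YAP-S127A, and overlaps Prss57. With Fst, that left TAZ-S89A lowest in both activin-binding antagonists. Fstl1 averaged 108 ± 31.9 CPM in TAZ-S89A, 1.18 ± 0.474 CPM in YAP-5SA and 592 ± 109 CPM in YAP-S127A. Chrd (chordin), a BMP antagonist whose gene overlaps Thpo, averaged 0.942 ± 0.250, 23.8 ± 6.22 and 5.47 ± 0.820 CPM in the same order. Bmper, a secreted BMP modulator, averaged 11.7 ± 2.69, 3.27 ± 0.565 and 32.8 ± 3.90 CPM, and Dcn (decorin), which binds TGF-beta and is also on the fibroblast list, 0.582 ± 0.464, 0.590 ± 0.0495 and 6.92 ± 0.469 CPM.

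Of the intracellular regulators all 15 were tested. Calls in TAZ-S89A against YAP-5SA were 4 higher and 2 lower (median log2 fold change -0.08). They were 1 higher and 4 lower in TAZ-S89A against YAP-S127A (-0.07), and 3 higher and 5 lower in YAP-5SA against YAP-S127A (-0.33). Bambi, a decoy receptor, averaged 0.574 ± 0.0712 CPM in TAZ-S89A, 0.616 ± 0.404 CPM in YAP-5SA and 16.8 ± 1.97 CPM in YAP-S127A. Tgif1, a corepressor of SMADs, averaged 119 ± 5.51, 55.7 ± 3.98 and 121 ± 2.87 CPM. Nedd4l, a ubiquitin ligase for activated SMADs, was lower in TAZ-S89A than in YAP-5SA at -1.16 (SE 0.14), and Ski, another corepressor, was lower in TAZ-S89A than in YAP-S127A at -0.95 (SE 0.14). Fkbp1a, which guards type I receptors, was higher in TAZ-S89A than in YAP-S127A by 0.62 (SE 0.18).

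**Figure D5:**
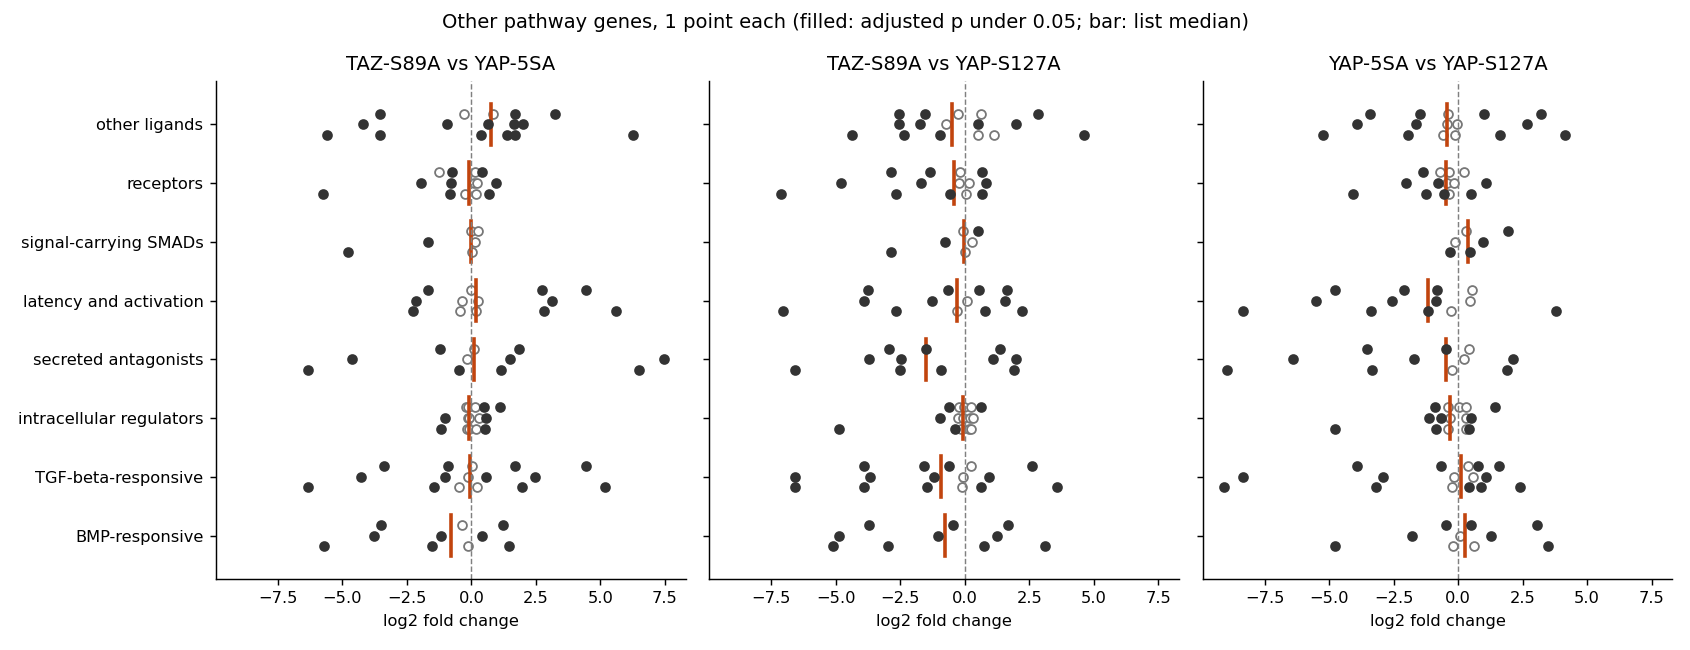
Log2 fold change of each tested gene of the 8 pathway lists in the 3 comparisons, the first-named group minus the second. Each point is 1 gene, filled where the adjusted p is under 0.05, and the upright bar is the list's median, which for the secreted antagonists lies at -1.48 in TAZ-S89A against YAP-S127A.

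Genes known to respond to TGF-beta were called in both directions, and all 16 were tested. Set against YAP-5SA, 6 were higher and 6 lower in TAZ-S89A (median log2 fold change -0.05). Set against YAP-S127A, 4 were higher and 9 lower in TAZ-S89A (-0.90), and 6 higher and 6 lower in YAP-5SA (0.11). Fn1 (fibronectin) averaged 1490.5 ± 218 CPM in TAZ-S89A, 269 ± 38.9 CPM in YAP-5SA and 4124 ± 228 CPM in YAP-S127A. Tagln (transgelin), which overlaps Pcsk7, averaged 84.6 ± 64.0, 2.36 ± 0.767 and 1264 ± 267 CPM, and Col1a1 31.0 ± 3.57, 322 ± 57.2 and 2950.1 ± 168 CPM. Pmepa1, a feedback inhibitor that TGF-beta induces, averaged 111 ± 5.0, 227 ± 30.4 and 169 ± 6.32 CPM, the order of Smad7. Its call in YAP-5SA against YAP-S127A (0.43) was lost without YAP-5SA replicate 1 or 3 or any single YAP-S127A library (adjusted p 0.0641 to 0.110). It was also lost with upper-quartile factors (adjusted p = 0.0606) or no filter (0.0668).

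Of the genes known to respond to BMP 10 of 12 were tested. TAZ-S89A had 3 higher and 5 lower than YAP-5SA (median log2 fold change -0.77), and 4 higher and 6 lower than YAP-S127A (-0.76). YAP-5SA had 4 higher and 3 lower than YAP-S127A (0.28). Id1 and Id3, direct targets of BMP SMADs, both had their lowest mean in TAZ-S89A. Id3 averaged 19.7 ± 5.34 CPM in TAZ-S89A, 271 ± 46.4 CPM in YAP-5SA and 257 ± 41.7 CPM in YAP-S127A. That order is the order of Bmp4. TAZ-S89A was lower at -3.78 (SE 0.21) against YAP-5SA and -3.70 (SE 0.21) against YAP-S127A, and YAP-5SA against YAP-S127A gave 0.08 (95% interval -0.42 to 0.58, adjusted p = 0.791).

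Id1 averaged 39.95 ± 9.68 CPM in TAZ-S89A, 453 ± 63.4 CPM in YAP-5SA and 55.1 ± 5.51 CPM in YAP-S127A. It was thus high in YAP-5SA alone of the groups, at -3.50 (SE 0.19) in TAZ-S89A against YAP-5SA and 3.04 (SE 0.23) in YAP-5SA against YAP-S127A. The difference of TAZ-S89A from YAP-S127A was -0.46 (SE 0.19, adjusted p = 0.049), or -0.40 (adjusted p = 0.110) with replicates 4 and 5 left out. This call was also lost with RLE factors (adjusted p = 0.0540), no filter (0.0862) or the second ID series as a covariate (0.0905). Leaving out any single YAP-S127A library (0.0654 to 0.165), TAZ-S89A replicate 1, 2, 4 or 5 (0.0956 to 0.1045) or YAP-5SA replicate 1 (0.0597) lost it too. Id4, at 0.0716 ± 0.0697, 3.32 ± 0.0752 and 2.18 ± 0.107 CPM in TAZ-S89A, YAP-5SA and YAP-S127A, had its lowest level in TAZ-S89A too, and overlaps A330033J07Rik. Id2, chosen after its values were seen, went the other way, with 169 ± 18.8, 128 ± 10.6 and 52.6 ± 3.77 CPM. Its call in TAZ-S89A against YAP-5SA (0.40, adjusted p = 0.0256) was lost without TAZ-S89A replicate 5 (adjusted p = 0.0512). The call was also lost without YAP-5SA replicate 1 (0.0718) or 3 (0.109), or with only these groups fitted (0.0520). Msx1, whose gene overlaps Msx1os, averaged 8.96 ± 1.72, 11.4 ± 1.58 and 1.02 ± 0.294 CPM.

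The genes whose log2 CPM followed a member most closely over the 11 libraries are given as a description, since the libraries fall into 3 groups and any gene with a like order of groups scores high. For Bmp4 the closest were Nid1 (Pearson r = 0.999) and Slc25a21 (0.998), and 419 genes had r over 0.95. For Bmp2 they were Lsr (0.996) and Kank3 (0.994), and for Inhba Tmem39a (0.998) and Znf41-ps (0.995). For Tgfb2 they were Rgl1 (0.991) and Hnrnpa2b1 (0.990), for Tgfb3 Akna (0.996) and Kif26b (0.993), and for Tgfbr2 Slc9a3r1 (0.997) and Tnip1 (0.995). Smad6 was closest to Prdm8 (0.994) and Arhgap45 (0.993), Smad7 to Ccdc152 (0.996) and Tmem45a (0.996), and Grem1 to Bc1 (0.992). Tgfb1, which varied mostly within TAZ-S89A, was closest to Kif4 (0.978) and Lrrc49 (0.953), with 3 genes over 0.95.

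The RNA of the mutated genes was measured as well. Yap1 averaged 66.5 ± 13.7 CPM in TAZ-S89A, 171 ± 8.44 CPM in YAP-5SA and 197 ± 11.8 CPM in YAP-S127A. Wwtr1, which encodes TAZ, averaged 82.3 ± 13.3, 141 ± 10.9 and 66.4 ± 1.54 CPM. These counts cannot tell the resident gene from an introduced copy. Whether reads of such a copy were counted is not known here, so they may not give its full level.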

How the data were processed

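RNA of 11 libraries of mouse liver tumour cell lines was analysed, grouped by the mutation named in the labels, and replicates were numbered in accession order. The deposited count column gives uniquely aligned reads per Entrez gene, per the file headers. Per the file headers, the authors adjusted the RPKM of the other deposited column by size factors (nRPKM), and it carries no information beyond the counts and gene lengths. Reads were aligned with GSNAP to GRCm38, per the submitters' processing notes. Neither the aligner's version nor the counting tool, annotation or strand mode is given in the sources used here, so genes that overlap another gene are uncertain. Such overlap also touches Tgfb2 (Gm35655, 130 counts in all libraries against 11274), Tgfbr2 (Gm31292, 40 against 58496) and Bmp4 (Gm15222, 1219, and Gm15217, 73, against 21786).

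Symbols, positions and promoter sequences were taken from RefSeq (GRCm38.p6). Another 5479 IDs had no match there, and the totals include them (2.91% of counts). Counts were tested with edgeR 4.0.16 in R 4.3.3: filterByExpr by group removed 18304 gene IDs, libraries were scaled by TMM, and all 11 libraries entered 1 robust quasi-likelihood fit, with Benjamini-Hochberg adjustment over 18224 genes and calls at 0.05. That shared spread is uneven, since the relative spread of a gene between libraries beyond counting error was 0.249 in TAZ-S89A, 0.174 in YAP-5SA and 0.0902 in YAP-S127A. The 95% counting intervals and the floor of 3 counts cover counting error only. The fit was tested on simulated data with an equal spread in all libraries and few changed genes. The real data differ in both, so that test does not bear on the uneven spread or the scaling here.

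Named were the 10 members and, of 8 pathway lists, up to 3 called genes per list and comparison by size of log2 fold change, if their mean log2 CPM was 0 or more. For each member the 2 genes of closest log2 CPM (mean 2 or more, no predicted models) were also named. A result that these rules select but that is withheld is not given. Tgfbr1, Bmp7, Id2 and Smad1 were named after their values were seen, and the ratios of Tgfbr2 to Tgfbr1 and Smad7 to Smad6 and the shares over Bmp2, Bmp4 and Inhba were added likewise. Itgb6 and Nog were also named after their values were seen, and their fold changes were not followed over the alternatives below. Members and lists, with 5 lists of cell type markers, were chosen with earlier results of these data known. Alternatives were upper-quartile or RLE factors, limma-voom (limma 3.58.1), DESeq2 1.42.0, no filter, a strict filter (1 CPM in 3 libraries and mean log2 CPM of 1), only the groups compared, dropping each library in turn, dropping the second ID series or fitting it as a covariate, and a minimum log2 fold change of 1.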

Additional observations from a re-analysis of the deposited data

How the results depend on the processing

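The fold changes of the 10 genes kept their side of the threshold in 597 of 597 refits. Their direction changed in 6, all of Tgfb1, which was never called, and Bmp2 was not tested under the strict filter. Requiring a log2 fold change of 1 or more in size left 6164 of 10545 genes called in TAZ-S89A against YAP-5SA, 5873 of 10505 in TAZ-S89A against YAP-S127A and 6269 of 10061 in YAP-5SA against YAP-S127A. In TAZ-S89A against YAP-S127A, 4 of the 10 genes then remained of 9. Of 2629 refitted fold changes of the other named pathway genes, most of them chosen for large fold changes, 45 lost a call and 22 gained one. The sign changed in 33, and in 2 of these the refit was called. Both were Smad1 in TAZ-S89A against YAP-S127A, at 0.01 with all libraries (not called), -0.29 without the second ID series and -0.28 with it as a covariate, and the cause was not tested. No scaling moved the median of all genes by over 0.0653 on the log2 scale. Low counts limit Bmp2 and Grem1 in TAZ-S89A, where 5 and 19 reads were counted in all. No library stood far enough from its group, by Dixon's test of 21 groups of values, to be given separately. With so few libraries in a group that test could hardly flag one, so its outcome says little. No paired analysis was possible because the labels give no replicate numbers, only accession order.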
